A study of Homo sapiens with 9 samples.

Results

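The genes described here are 10 genes of the glutathione peroxidase 4 defence against ferroptosis, of the defences that run beside it, and of the machinery that makes selenoproteins. They were chosen by name: GPX4; the parallel suppressors AIFM2, DHODH and GCH1; the selenocysteine machinery genes SEPHS2, PSTK, SEPSECS, SECISBP2 and EEFSEC; and the selenoprotein gene SELENOW. All 10 were found in the deposited table of 62710 genes, and all 10 were among the 15230 genes tested, which had a mean of at least 10 normalized counts over the 9 libraries. A normalized count is the number of reads assigned to a gene, divided by a factor that corrects for the size of its library.

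Cells were of the line A375R, a human melanoma line resistant to the BRAF inhibitor PLX4032 and grown in its presence in all groups. They received the vehicle DMSO, or VHL-r at 10 µM, or R4VPL3-1 at 10 µM, for 2 h, with 3 libraries per treatment. The study's methods call these independent biological repeats. R4VPL3-1 is a PROTAC-like molecule that joins a group binding RNF4, a SUMO-targeted ubiquitin ligase, through a linker to a group that binds VHL, a subunit of another ubiquitin ligase. VHL-r is the VHL-binding group without the rest. The titles of the control libraries say wild type and give no dose or time. These libraries are called DMSO because the series design names DMSO as its control. In the column labels, DMSO replicates 2 and 3 carry 2 h and replicate 1 carries no time. The recovered totals were 26435568 to 32085626 reads per library. All data come from 1 cell line at 1 time point, and RNA was measured, not protein.

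Ferroptosis is cell death driven by iron-dependent peroxidation of membrane lipids. GPX4 reduces lipid hydroperoxides with glutathione, while AIFM2 (also called FSP1), DHODH and GCH1 limit peroxidation through reduced coenzyme Q or tetrahydrobiopterin, without GPX4. GPX4 is a selenoprotein: its active site holds selenocysteine, which is encoded by a UGA codon that would otherwise end translation, and is read through with a dedicated transfer RNA, elongation factor and RNA-binding protein.

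The selenocysteine codon is what ties GPX4 and SELENOW to the machinery genes, so it is shown with the bases around it. An in-frame TGA was found in the reference coding sequences of 3 of the 10 genes, GPX4, SEPHS2 and SELENOW, and at 1 codon in each. The sequences come from the MANE Select transcripts of GENCODE 44 (GRCh38), with 12 coding bases before and 12 after the codon, which is in capitals.
GPX4: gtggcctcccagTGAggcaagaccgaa
SEPHS2: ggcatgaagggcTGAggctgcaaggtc
SELENOW: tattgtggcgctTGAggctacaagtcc
In GPX4 it is codon 73 of 197, in exon 3 of 7, at chr19:1105403-1105405 on the plus strand. In SEPHS2 it is codon 60 of 448, in the single exon, at chr16:30445548-30445550 on the minus strand. In SELENOW it is codon 13 of 87, in exon 2 of 6, at chr19:47780732-47780734 on the plus strand. In all 3 genes the next codon is ggc, which encodes glycine. The coding sequences of the other 7 genes held no in-frame TGA.

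Levels of different genes were compared as normalized counts per kb of the MANE Select transcript. In DMSO-treated cells GPX4 was the highest of the 10, at 2626 ± 85.5 per kb (SD, n = 3), above 94.8% of the tested genes. SEPHS2, which makes the selenophosphate that selenocysteine is built from and is itself a selenoprotein, followed at 1665 ± 46.7 per kb, and SELENOW at 1138 ± 31.4 per kb. The 3 genes with a selenocysteine codon thus stood at the top of the order of these 10 genes. The order depends on the length used. For SELENOW this was 758 bases for its transcript beside 5156 for all its exons. For GPX4 it was 851 beside 1840, and for PSTK 1173 beside 6118. Before division by length SELENOW was at 862.4 normalized counts with DMSO, below SECISBP2 at 1613 and close to AIFM2 at 864.3. SEPHS2, at 3737, was then above GPX4 at 2235, and PSTK, at 472.5, was below DHODH at 826.1. SECISBP2 was at 463.3 ± 2.82 per kb, PSTK at 402.9 ± 12.4, AIFM2 at 275.8 ± 6.4, EEFSEC at 273.4 ± 8.21 and DHODH at 176.9 ± 7.07. SEPSECS was at 87.7 ± 7.23 per kb, and GCH1 was the lowest at 46.5 ± 6.24, above 29.6% of the tested genes, whose median was 167.6. The level of GPX4 per kb of these transcripts was 56.5-fold that of GCH1. The only neighbours in this order whose DMSO libraries overlapped were AIFM2 and EEFSEC, so these levels were not told apart.

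**Figure D1:**
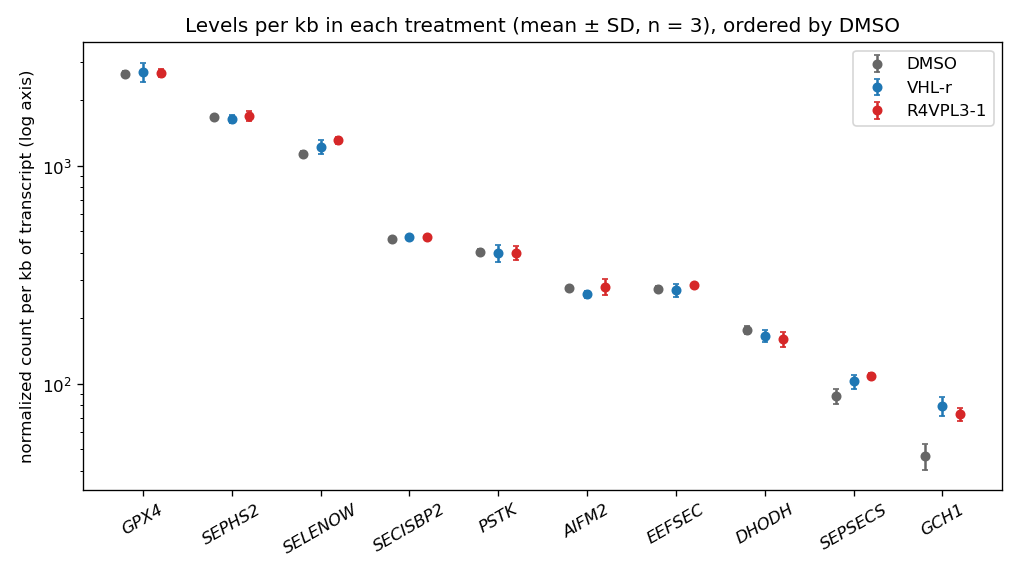
Normalized counts per kb of transcript (log axis) of the 10 genes in each treatment, as the mean ± SD of 3 libraries, ordered by the DMSO level. GPX4 is at the top at 2626 per kb and GCH1 at the bottom at 46.5 per kb in DMSO, and the visible shifts after treatment are those of GCH1 and SEPSECS.

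Against this baseline, R4VPL3-1 raised the RNA of 3 of the 10 genes, GCH1 by 1.57-fold, SEPSECS by 1.24-fold and SELENOW by 1.15-fold, and VHL-r raised GCH1 by 1.70-fold. None of the 10 was called lower in either comparison by limma, edgeR or DESeq2, and none was called between R4VPL3-1 and VHL-r. GPX4 itself was at 1.02-fold of its DMSO level with either compound. The test was limma over the 15230 genes, called at an adjusted p of at most 0.05. It called 24.9% of all tested genes in R4VPL3-1 against DMSO (13.1% higher and 11.8% lower) and 19.8% in VHL-r against DMSO (10.3% higher and 9.51% lower), and beside these shares 3 of 10 and 1 of 10 are not a result about the 10 genes as a group. The absolute log2 fold changes of the 10 genes had a median of 0.041 with R4VPL3-1 and 0.062 with VHL-r, beside 0.138 and 0.123 over all tested genes. The tested genes reach down to a mean of 10 normalized counts, while the lowest mean of the 10 genes was 192.3, for GCH1. The medians were not matched for level, so they do not show that the 10 genes were more stable than others. Both comparisons use the same 3 DMSO libraries, so they are not independent of each other.

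**Figure D2:**
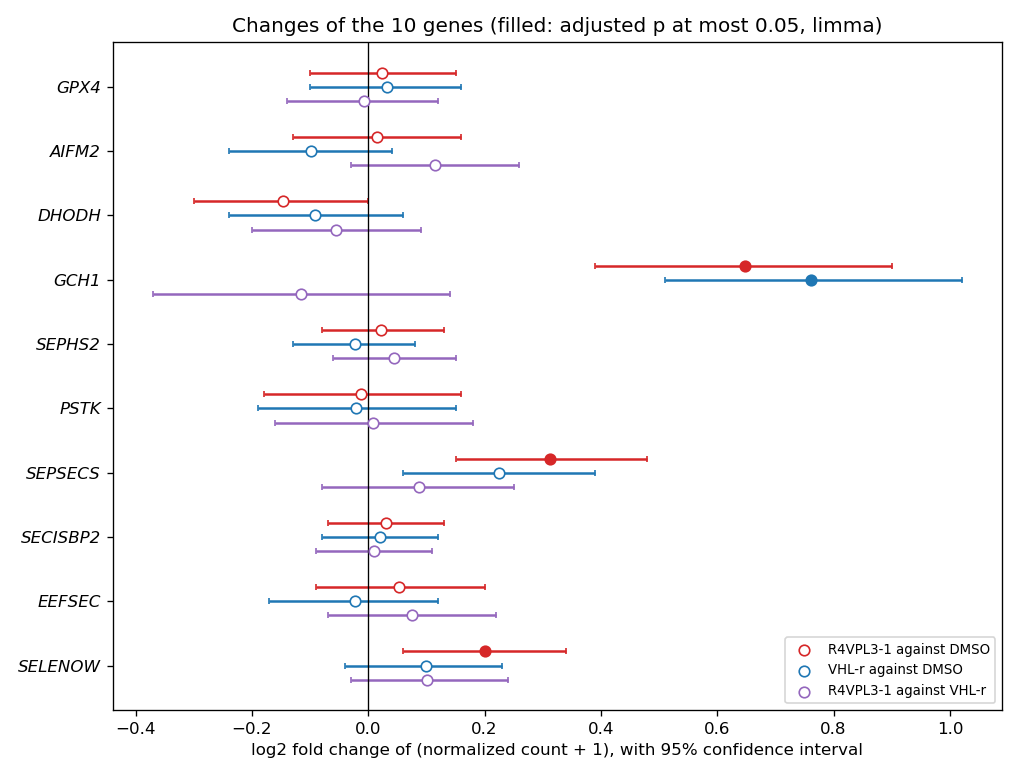
Log2 fold change of (normalized count + 1) for each of the 10 genes in the 3 comparisons, with the 95% confidence interval from limma. Filled points were called at an adjusted p of at most 0.05: GCH1 against DMSO with both compounds, and SEPSECS and SELENOW with R4VPL3-1.

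GPX4 (ENSG00000167468, chr19:1103982-1106791, plus strand) had normalized counts of 2316, 2174 and 2215 in the DMSO libraries, 2152, 2162 and 2562 with VHL-r, and 2225, 2380 and 2213 with R4VPL3-1. The 3 groups overlapped, and 1 library, VHL-r replicate 3, was above all others. The means were 2235 ± 72.7, 2292 ± 234 and 2273 ± 93 (SD, n = 3). The log2 fold change was 0.02 with R4VPL3-1 (95% interval -0.10 to 0.15, limma adjusted p = 0.825) and 0.03 with VHL-r (-0.10 to 0.16, limma adjusted p = 0.786). On the linear scale the interval for R4VPL3-1 ran from 0.93-fold to 1.11-fold. The change with VHL-r was -0.051 without VHL-r replicate 3, also not called.

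**Figure D3:**
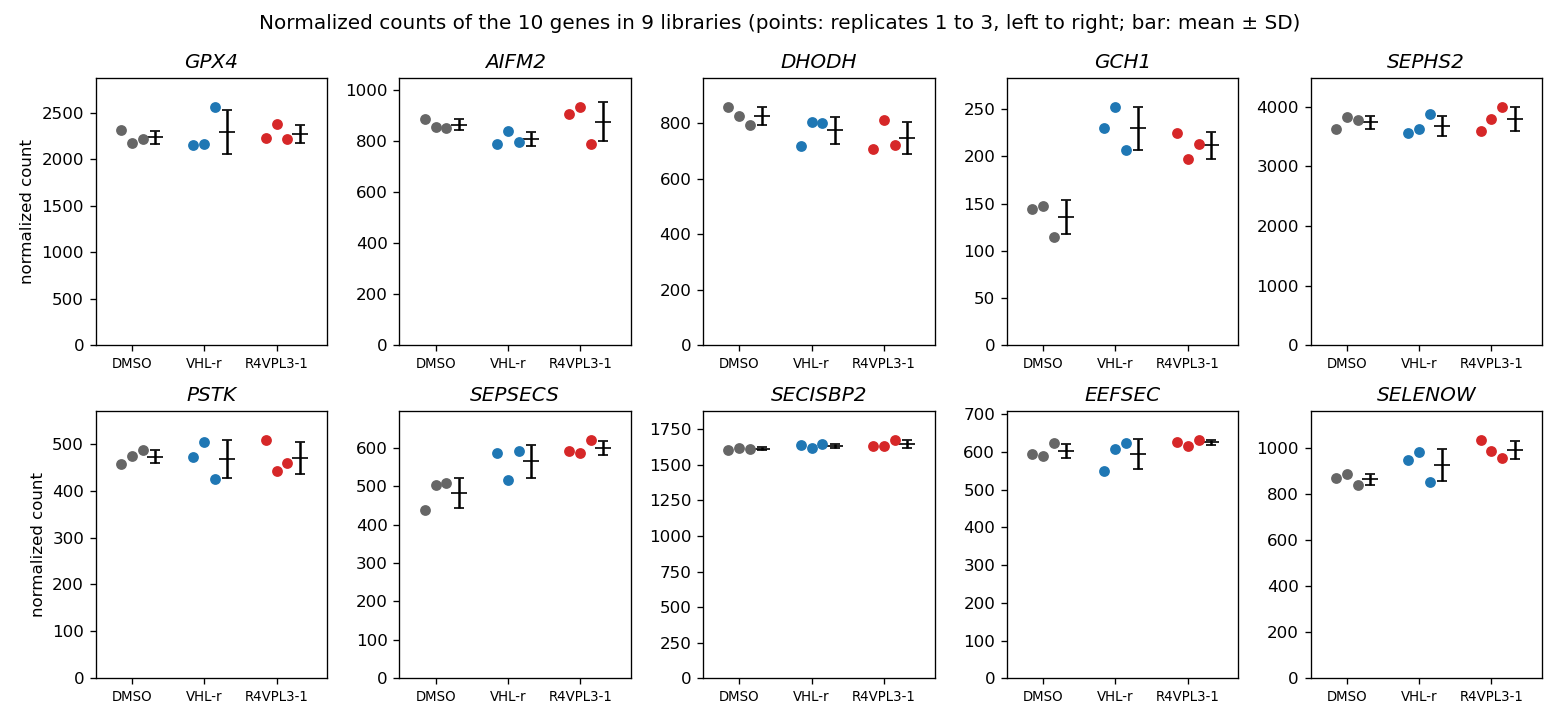
Normalized counts of each of the 10 genes in the 9 libraries, each panel starting at 0. Points are replicates 1 to 3 of each treatment from left to right, and the bars give the mean ± SD; in GCH1 the DMSO libraries, at 114.6 to 147.6, lie below all libraries of both compounds, at 197.0 to 252.1.

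GCH1 (ENSG00000131979, chr14:54842008-54902826, minus strand), the rate-limiting enzyme of tetrahydrobiopterin synthesis, changed most among the 10. Its normalized counts were 144.4, 147.6 and 114.6 with DMSO, 230.2, 252.1 and 206.9 with VHL-r, and 225.0, 197.0 and 213.1 with R4VPL3-1. All 6 treated libraries were above all 3 DMSO libraries, and the ranges of the compounds overlapped. GCH1 had a log2 fold change of 0.76 with VHL-r (95% interval 0.51 to 1.02, limma adjusted p = 1.01e-04) and 0.65 with R4VPL3-1 (SE 0.122, 0.39 to 0.90, limma adjusted p = 4.2e-04). GCH1 was called in both comparisons under each of the 20 alternative settings, with adjusted p from 2.02e-06 to 0.00171 for VHL-r and from 7.82e-05 to 0.00319 for R4VPL3-1. It is also the gene with the fewest reads of the 10, 113 to 241 per library. Its spread among the DMSO libraries, 13.4% of the mean, compares with 8.43% from counting alone.

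AIFM2 (ENSG00000042286, chr10:70098223-70132934, minus strand), an oxidoreductase that reduces coenzyme Q at membranes, was at 887.2, 856.0 and 849.8 normalized counts with DMSO, 786.6, 839.3 and 795.8 with VHL-r, and 904.8, 933.2 and 789.0 with R4VPL3-1. The VHL-r libraries lay below the DMSO libraries, and those of R4VPL3-1 reached both above and below them. The log2 fold change of AIFM2 was -0.10 with VHL-r (-0.24 to 0.04, limma adjusted p = 0.363) and 0.02 with R4VPL3-1 (-0.13 to 0.16, limma adjusted p = 0.907), and neither passed the test.

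DHODH (ENSG00000102967, chr16:72008588-72027664, plus strand), the mitochondrial enzyme of pyrimidine synthesis that passes electrons to coenzyme Q, was at 859.0, 826.4 and 793.0 normalized counts with DMSO, 719.5, 805.7 and 802.0 with VHL-r, and 706.8, 812.8 and 721.6 with R4VPL3-1. A single R4VPL3-1 library, replicate 2, overlapped the DMSO range. DHODH had a log2 fold change of -0.15 with R4VPL3-1 (-0.30 to 0.00, limma adjusted p = 0.145) and -0.09 with VHL-r (-0.24 to 0.06, limma adjusted p = 0.428). DHODH therefore had the most negative value of the 10 with R4VPL3-1, but it was not called, there or under any of the alternative settings, where its adjusted p was 0.0574 to 0.404.

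Of the machinery genes, SEPSECS (ENSG00000109618, chr4:25120014-25160550, minus strand) was the only gene called, and it rose with R4VPL3-1. It encodes the synthase that makes selenocysteine on its transfer RNA. Its normalized counts were 436.8, 501.8 and 509.1 with DMSO, 585.4, 515.8 and 591.0 with VHL-r, and 591.1, 585.0 and 619.9 with R4VPL3-1. Neither compound's libraries overlapped those of DMSO, and the closest pair was DMSO replicate 3 and VHL-r replicate 2. The log2 fold change was 0.31 with R4VPL3-1 (0.15 to 0.48, limma adjusted p = 0.00578), and it was called under all 20 alternative settings, with adjusted p from 0.00287 to 0.0443. With VHL-r it was 0.23 (0.06 to 0.39, limma adjusted p = 0.052), just short of a call. This adjusted p lay on either side of the threshold, from 0.0316 to 0.249, depending on the setting: the lowest was without VHL-r replicate 2, and it was 0.0427 without DMSO replicate 3, 0.0489 without R4VPL3-1 replicate 3 and 0.0491 with robust limma.

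The enzyme a step before SEPSECS, the kinase PSTK (ENSG00000179988, chr10:122954381-122997513, plus strand), which phosphorylates the serine carried by the same transfer RNA, did not pass the test. Its normalized counts were 457.7, 473.2 and 486.8 with DMSO, 472.3, 504.2 and 424.0 with VHL-r, and 507.9, 441.7 and 458.2 with R4VPL3-1, with all 3 groups overlapping. The log2 fold change was -0.01 with R4VPL3-1 (-0.18 to 0.16) and -0.02 with VHL-r (-0.19 to 0.15).

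SEPHS2 (ENSG00000179918, chr16:30443631-30445874, minus strand) was at 3620, 3821 and 3770 normalized counts with DMSO, 3554, 3619 and 3872 with VHL-r, and 3600, 3795 and 3995 with R4VPL3-1. The groups overlapped, and the log2 fold changes were 0.02 with R4VPL3-1 (-0.08 to 0.13) and -0.02 with VHL-r (-0.13 to 0.08).

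SECISBP2 (ENSG00000187742, chr9:89318500-89359663, plus strand), which binds the selenocysteine insertion element of selenoprotein mRNAs, had the lowest spread of the 10 among the DMSO and among the VHL-r libraries, while EEFSEC had the lowest with R4VPL3-1 (1.2% of the mean against 1.51%). Its normalized counts were 1603, 1622 and 1613 with DMSO, 1638, 1619 and 1648 with VHL-r, and 1632, 1633 and 1675 with R4VPL3-1. The R4VPL3-1 libraries were all above the DMSO libraries, but by a log2 fold change of 0.03 only (-0.07 to 0.13, limma adjusted p = 0.711). The spread among the DMSO libraries was 0.61% of the mean, below the 2.45% expected from counting, and the difference between the means was smaller than that. Groups did not overlap in 4 of the 10 genes with R4VPL3-1 (GCH1, SEPSECS, SECISBP2 and SELENOW) and in 3 with VHL-r (GCH1, SEPSECS and AIFM2), beside 38% and 34.3% of all tested genes.

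EEFSEC (ENSG00000132394, chr3:128153481-128408646, plus strand), the elongation factor that carries the selenocysteine transfer RNA to the ribosome, was at 594.8, 590.3 and 623.6 normalized counts with DMSO, 549.4, 608.2 and 624.8 with VHL-r, and 626.5, 616.8 and 631.6 with R4VPL3-1. The groups overlapped, and the log2 fold changes of 0.05 with R4VPL3-1 (-0.09 to 0.20) and -0.02 with VHL-r (-0.17 to 0.12) were not called.

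SELENOW (ENSG00000178980, chr19:47778677-47784686, plus strand), a small selenoprotein with a thioredoxin-like fold, was at 867.2, 883.5 and 836.6 normalized counts with DMSO, 946.7, 980.1 and 849.1 with VHL-r, and 1033, 985.0 and 955.0 with R4VPL3-1. The R4VPL3-1 libraries were above all DMSO libraries, while VHL-r replicate 3 lay inside the DMSO range. The log2 fold change was 0.20 with R4VPL3-1 (0.06 to 0.34, limma adjusted p = 0.0279) and 0.10 with VHL-r (-0.04 to 0.23, limma adjusted p = 0.336). The call with R4VPL3-1 was lost without DMSO replicate 1 (adjusted p = 0.059), DMSO replicate 3 (0.0922), R4VPL3-1 replicate 1 (0.122) or R4VPL3-1 replicate 2 (0.063), and over all settings the adjusted p ran from 0.0131 to 0.122.

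R4VPL3-1 and VHL-r differ by the RNF4-binding group and the linker, and were compared at the same dose and time. None of the 10 genes was called in this comparison by limma, edgeR or DESeq2, beside 1.87% of all tested genes called by limma. None had an unadjusted p under 0.05, as 9.9% of all tested genes did, and in none did the groups lie apart, as they did in 14.1%. The log2 difference, R4VPL3-1 minus VHL-r, was -0.01 for GPX4 (95% interval -0.14 to 0.12, limma adjusted p = 0.99) and -0.11 for GCH1 (-0.37 to 0.14, limma adjusted p = 0.882). It was 0.09 for SEPSECS (-0.08 to 0.25) and 0.10 for SELENOW (-0.03 to 0.24), so the calls of these genes with R4VPL3-1 alone do not show a difference between the compounds. AIFM2 had the most positive difference, 0.11 (-0.03 to 0.26). The intervals allow a GPX4 level 0.91-fold to 1.09-fold that of VHL-r-treated cells, and a GCH1 level of 0.77-fold to 1.10-fold.

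The wider pathways were read from lists of related genes. Of 25 selenoprotein genes, which include GPX4, SEPHS2 and SELENOW, 17 were tested. With R4VPL3-1, 2 rose (TXNRD1 and SELENOW) and 1 fell (TXNRD2) against DMSO, with a median log2 fold change of 0.030 beside -0.006 over all genes. With VHL-r only TXNRD2 was called. Over all tested genes limma called 24.9% and 19.8% in these comparisons, so the calls were no more frequent in this list. TXNRD1, the cytosolic thioredoxin reductase, was at 11839, 11241 and 9648 normalized counts with DMSO, 12112, 12193 and 10493 with VHL-r, and 15370, 14966 and 12926 with R4VPL3-1. All R4VPL3-1 libraries were above all others, and within each treatment replicate 3 was the lowest. Its log2 fold change was 0.40 against DMSO (limma adjusted p = 2.26e-04) and 0.31 against VHL-r (limma adjusted p = 0.0204). The latter call was lost with the robust form of limma (adjusted p = 0.268), with DESeq2 (0.131), and without VHL-r replicate 3 (0.15), R4VPL3-1 replicate 1 (0.134) or R4VPL3-1 replicate 2 (0.128), and over all settings the adjusted p ran from 1.25e-05 to 0.268. TXNRD2, the mitochondrial thioredoxin reductase, fell by 0.29 on the log2 scale with R4VPL3-1 (limma adjusted p = 9.22e-04) and had a log2 fold change of -0.205 with VHL-r (limma adjusted p = 0.0187). Its call with VHL-r was lost without DMSO replicate 1 (adjusted p = 0.129) or VHL-r replicate 1 (0.104), and ran from 0.014 to 0.129 over the settings.

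The other 8 selenoprotein genes were not tested. GPX1, GPX2, GPX6, SELENOH and SELENOV were listed at 0 in all 9 libraries, and DIO1, DIO3 and SELENOP had means of 0.666, 0.113 and 7.42 normalized counts. SCLY, which recycles selenium from selenocysteine, and the coenzyme Q synthesis gene COQ8A were also listed at 0. In the annotation, 39.9% of the exon bases of GPX1, 20.8% of SELENOH, 19.8% of SCLY and 58.3% of COQ8A lie on exons of another gene of the same strand. Counting by htseq-count leaves out reads that fall on exons of more than 1 gene, and its part in these zeros was not tested. None of the 10 genes shared exon bases with another gene on its own strand. On the opposite strand AIFM2 shared 19.20% of its exon bases, EEFSEC 14.33% and PSTK 1.32%, and the counting used the strand.

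Of 10 further genes linked to selenocysteine insertion or selenium supply, whether they aid it or limit it, 9 were tested. In both comparisons with DMSO 1 rose (EIF4A3) and 2 fell (ALKBH8 and SEPHS1), and 0 was called between the compounds by limma, edgeR or DESeq2, or reached an unadjusted p under 0.05. Over all tested genes limma called 24.9% with R4VPL3-1, 19.8% with VHL-r and 1.87% between the compounds, where 9.9% had an unadjusted p under 0.05. Beside these shares the counts of 9 genes say nothing particular of the list. EIF4A3, an RNA helicase that binds a subset of selenoprotein mRNAs, had a log2 fold change of 0.31 with R4VPL3-1 (limma adjusted p = 5.29e-05) and 0.31 with VHL-r (limma adjusted p = 6.44e-05). ALKBH8, which modifies the selenocysteine transfer RNA, had a log2 fold change of -0.25 with R4VPL3-1 (limma adjusted p = 0.0017) and -0.31 with VHL-r (limma adjusted p = 3.82e-04). SEPHS1, a paralogue of SEPHS2, was singled out after its values were seen. Its log2 fold change was -0.149 with R4VPL3-1 (limma adjusted p = 0.0379) and -0.147 with VHL-r (limma adjusted p = 0.048), close to the threshold. The call with R4VPL3-1 was lost without the filter on low values and without DMSO replicate 1 or 2, VHL-r replicate 2 or R4VPL3-1 replicate 1 (adjusted p up to 0.205). That with VHL-r was lost without the filter, with upper-quartile scaling, and without DMSO replicate 1 or 2, any VHL-r replicate or R4VPL3-1 replicate 2 (adjusted p up to 0.177).

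**Figure D4:**
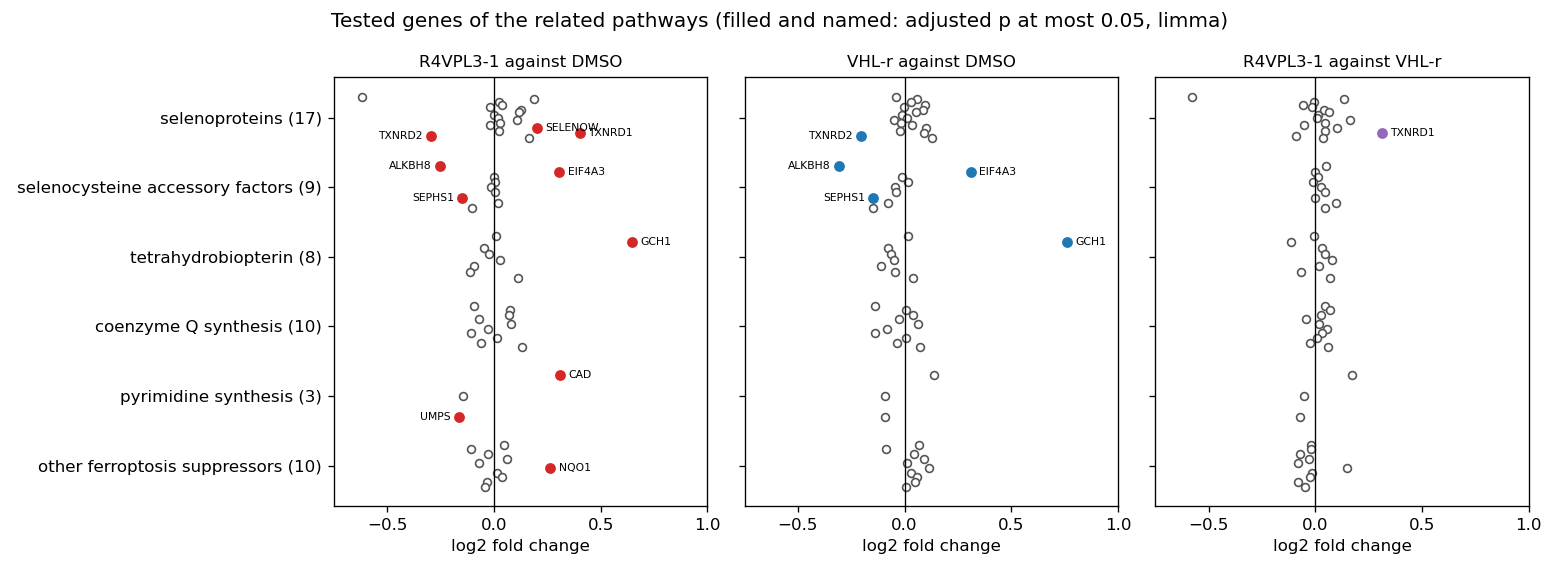
Log2 fold changes of the tested genes of 6 related gene lists in the 3 comparisons, with the number tested in brackets. Filled and named points were called at an adjusted p of at most 0.05: no gene of coenzyme Q synthesis was called in any comparison, and GCH1 was the only tetrahydrobiopterin gene called.

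In tetrahydrobiopterin metabolism all 8 genes of the list were tested, and GCH1 was the only member called against DMSO with either compound, beside 24.9% and 19.8% of all genes. SPR, the reductase of the last step, was at 1314, 1309 and 1362 normalized counts with DMSO and at 1401, 1448 and 1454 with R4VPL3-1. These groups did not overlap, but the log2 fold change of 0.11 did not pass the test (limma adjusted p = 0.13). QDPR, which regenerates tetrahydrobiopterin and is named after its values were seen, had a log2 fold change of -0.112 with R4VPL3-1 (-0.22 to -0.00, limma adjusted p = 0.138). GCH1, SPR and QDPR were the 3 genes of the list, of 8 tested, with an unadjusted p under 0.05 in this comparison. Of all tested genes 35.5% had such a p, so this count says nothing particular of the list. The median log2 fold change of the list was -0.006 with R4VPL3-1 and -0.047 with VHL-r, beside -0.006 and -0.005 over all genes.

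Coenzyme Q synthesis, which provides the substrate of AIFM2 and DHODH, had 10 of its 11 genes tested. None was called in any comparison by limma, edgeR or DESeq2, and 0 had an unadjusted p under 0.05. Over all tested genes limma called 24.9% with R4VPL3-1, 19.8% with VHL-r and 1.87% between the compounds, and 35.5%, 30.3% and 9.9% had such a p. The lowest adjusted p was 0.214 with R4VPL3-1, for PDSS2 at a log2 fold change of 0.13, and 0.256 with VHL-r, for COQ2 at -0.137. In pyrimidine synthesis, where DHODH is the middle of 3 genes, CAD, the enzyme of the opening steps, rose with R4VPL3-1 (log2 fold change 0.31, limma adjusted p = 4.83e-04) and UMPS, the enzyme of the closing steps, fell (-0.16, limma adjusted p = 0.00841). Neither was called with VHL-r or between the compounds by limma, edgeR or DESeq2, though both had an unadjusted p under 0.05 with VHL-r and CAD had one between the compounds. CAD passed the threshold when single libraries were left out: the adjusted p was 0.0308 with VHL-r without DMSO replicate 1, and 0.0319 between the compounds without VHL-r replicate 1.

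Among 10 other genes that limit lipid peroxidation, all tested, NQO1 was the only member called, with R4VPL3-1 against DMSO, where 24.9% of all genes were called. NQO1, a quinone reductase, was at 11445, 11851 and 10729 normalized counts with DMSO, 12232, 12642 and 11960 with VHL-r, and 13789, 14222 and 12862 with R4VPL3-1. The 3 groups did not overlap. Its log2 fold change was 0.26 with R4VPL3-1 (limma adjusted p = 2.16e-04) and 0.115 with VHL-r (limma adjusted p = 0.0936), and the difference of 0.149 between the compounds missed the threshold (limma adjusted p = 0.148). This difference passed it when R4VPL3-1 replicate 3 was left out (adjusted p = 0.0352), and its range over all settings was 0.0352 to 0.503. GPX8, a glutathione peroxidase without selenocysteine, had a log2 fold change of -0.11 with R4VPL3-1 (limma adjusted p = 0.191), which passed the threshold without R4VPL3-1 replicate 3 (adjusted p = 0.0458).

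Over the 9 libraries, the tested genes whose log2 values were most like those of GPX4 by Pearson's r were PKM (0.944), ETHE1 (0.943), PPDPF (0.925), ATP6V0E2 (0.924) and TMEM43 (0.918). None of these 5 genes was called against DMSO either. Those most like GCH1 were HYCC1 (0.985), CORO1A (0.985), NPL (0.981), DHRS2 (0.981) and KLHL7 (0.979), all 5 called higher than DMSO with both compounds. The correlations are picked from all tested genes over 9 points that share treatment and library size, and are given as a description. The calls of the picked genes rest on the same libraries and largely follow from how they were picked.

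The line was checked against marker genes. SOX10, MITF, DCT, S100B, S100A1 and AXL, taken here as markers of the melanocyte lineage or melanoma, were present in all libraries. PMEL was at 20.9 to 36.8 normalized counts, while MLANA was listed at 0 and TYR reached 2.1. The summed level of the 9 melanocyte and melanoma markers was 33419 to 35168 normalized counts with DMSO, 23990 to 26600 with VHL-r and 21962 to 23830 with R4VPL3-1, and was thus lower in the groups where GCH1 was higher. Of the 9, 7 were tested. SOX10, MITF and AXL were called lower by limma with each compound, SOX10 most (log2 fold change -1.06 with R4VPL3-1 and -0.79 with VHL-r). PMEL, DCT, S100B and S100A1 were called with neither. SOX10 and AXL made up most of the sum. SOX10 was at 17007 to 17935 normalized counts with DMSO, 9133 to 11216 with VHL-r and 7900 to 8752 with R4VPL3-1. AXL was at 9240 to 12114 over all libraries. Among markers of other cells, the 3 epithelial ones summed to 350.2 to 391.4 with DMSO, 300.2 to 319.6 with VHL-r and 250.2 to 298.5 with R4VPL3-1, and 1 of them (KRT14) was called lower with R4VPL3-1. The 3 immune and 2 endothelial markers summed to at most 13.3 in any library. The 2 fibroblast markers, COL3A1 and DCN, summed to 651.3 to 1437 and were not called. All 9 libraries are of 1 cell line. The part of these marker changes in the changes of the 10 genes was not tested. In bulk RNA fewer cells with a marker cannot be told from less of its RNA per cell.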

How the data were processed

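RNA of 3 repeats per treatment was selected for poly(A), and 100-base single reads were strand-specific. Per the study's methods, the authors mapped them to GRCh38 with STAR and assigned them to genes by strand with htseq-count. They deposited a normalized signal, the count divided by the DESeq2 1.36.0 size factor of the library (here 0.9341 to 1.1012). Whole reads were recovered from these values, and 100% of values above 0 were whole within 0.1. Further libraries that the labels mention were not analysed here.

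The deposited values were tested by limma 3.58.1 (R 4.3.3) with a trend on log2(value + 1), in a single-factor fit of the 9 libraries. The 15230 genes whose mean reached 10 were tested. Adjusted p-values are Benjamini-Hochberg over all of these, called at 0.05. Fold changes are on the log2(value + 1) scale. The fit was tested on simulated data. The alternatives were pseudocounts of 0.1 and 5, a minimum mean of 50 or none, TMM or upper-quartile scaling, robust limma, a block for the replicate number, counts tested by edgeR 4.0.16 or DESeq2 1.42.0, a fit of the 6 libraries compared, and each library left out.

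The 10 genes and the lists were chosen with earlier results of these data known. List genes are named where called in any comparison with an absolute log2 fold change of at least 0.3 or, with fewer than 2 such genes, as the 2 with the lowest adjusted p. Gene coordinates are on GRCh38. GENCODE 44 matched 62639 of 62710 gene identifiers and gave exons and transcripts, and shared exon bases are a share of a gene's merged exons. No pair of libraries of the same treatment agreed within sampling noise.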

Additional observations from a re-analysis of the deposited data

How the results depend on the processing

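Over 20 alternative settings, 66 values (10 genes of interest and 12 pathway genes in 3 comparisons) gave 1320 results. Of these, 1250 kept their direction and side of the threshold, 24 lost a call, 12 gained a call and 34 changed sign, the last in 14 comparisons that were not called. The 14 all lay near 0, and the cause was not tested. With upper-quartile scaling the sign changed for AIFM2 with R4VPL3-1 against DMSO (log2 fold change -0.003) and, between the compounds, for PSTK (-0.007) and SECISBP2 (-0.006). With edgeR it changed for PSTK with R4VPL3-1 against DMSO (0.001) and, between the compounds, for EIF4A3 (0.002) and SEPHS1 (0.005), and with TMM scaling for EIF4A3 (0.002) and SEPHS1 (0.004). With single libraries left out, the log2 fold change with R4VPL3-1 against DMSO ranged from -0.010 to 0.050 for GPX4, -0.032 to 0.089 for AIFM2, -0.015 to 0.060 for SEPHS2 and -0.070 to 0.030 for PSTK. With VHL-r against DMSO it ranged from -0.051 to 0.075 for GPX4, -0.059 to 0.003 for SEPHS2, -0.078 to 0.047 for PSTK and -0.060 to 0.032 for EEFSEC. Between the compounds it ranged from -0.051 to 0.075 for GPX4, -0.059 to 0.066 for PSTK, -0.002 to 0.017 for SECISBP2, -0.038 to 0.025 for EIF4A3, -0.030 to 0.038 for SEPHS1 and -0.075 to 0.014 for GPX8.

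The number of the 10 genes called with VHL-r against DMSO was 1 and became 2, by SEPSECS, with robust limma and with the replicate block, and was 1 to 2 with single libraries left out. The count over all genes between the compounds was 285 and ranged from 182, without R4VPL3-1 replicate 1, to 358. Libraries with the same replicate number had correlations of their deviations from the treatment means of -0.006 to 0.121 over 9 pairs. For libraries with different numbers these were -0.148 to 0.098. With the replicate block the counts over all genes were 4241 in place of 3792, 3451 in place of 3016 and 389 in place of 285. SEPSECS (adjusted p = 0.0339), CAD (0.0399) and NQO1 (0.0347) were then called with VHL-r against DMSO, and NQO1 between the compounds (0.0382). GCH1, with 113 to 241 reads per library, is the gene whose precision depth limits most among the 10.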
